A study of Homo sapiens with 8 samples.

Results

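Type VI collagen is built from chains encoded by COL6A1, COL6A2 and COL6A3, and its mRNAs were examined here for contact with LARP6. LARP6 belongs to the La-related family of RNA-binding proteins, and its best known target is a 5′ stem-loop in type I and type III collagen mRNAs. The members were all regions whose midpoint lay within the bounds of one of these 3 genes, on the strand of that gene. There were 873 such regions of 178461 in all. Of them, 854 were tested clusters of a single library and 19 were peaks of the lists that the authors made from both replicates of a condition. COL6A1 held 230 regions, COL6A2 held 242 and COL6A3 held 401.

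In type VI collagen, one α1, one α2 and one α3 chain form a short triple helix flanked by large globular domains, and these units assemble into tetramers inside the cell. Outside the cell the tetramers join into beaded microfilaments that lie around cells and next to basement membranes. The α3 chain is the longest and carries at its C-terminal end the region that is released as endotrophin. Type VI collagen is deposited in fibrotic liver, where stellate cells are a source of it.

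The assay was eCLIP. Ultraviolet light fixes a protein to the RNA it touches, the RNA is cut to short fragments, the protein is pulled down, and its fragments are sequenced next to those of a size-matched input that skips the pull-down. The cells were wild-type human hepatic stellate cells, which make most of the matrix in scarred liver. The TGFβ1 group received TGFβ1, a cytokine that activates stellate cells, at 5 ng/ml. The control group is labelled both untreated and DMSO. Each condition had 2 libraries pulled down with an anti-LARP6 antibody and 2 input libraries, which makes 8 samples. Inputs were not analysed here on their own and entered only through the deposited fold of each cluster. The labels do not say that the replicates were separate cultures, so each p-value measures only the spread between these libraries, which may be technical.

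The libraries held 51273 and 39880 tested clusters in control replicates 1 and 2, and 31137 and 54536 in TGFβ1 replicates 1 and 2. Read depth is unknown, because no list gives counts. All 10 stellate cell genes looked at held tested clusters in the 4 libraries. No hepatocyte gene (0 of 4) and no endothelial gene (0 of 3) did. Of the macrophage genes only CD68 (1 of 3) and of the cholangiocyte genes only SOX9 (1 of 3) did, with at most 4 clusters in a library. The lists give no expression values, so these are counts of tested regions only. The median log2 fold over all tested clusters was 0.38 and 0.85 in control and 0.94 and 0.82 in TGFβ1, a shift of 0.27 between the condition means, so the main differences between conditions are given as deposited and after subtraction of each library's median.

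Enrichment was called where the log2 fold over input and the −log10 p were both 3 or more. All log2 folds and −log10 p-values of single clusters are the authors' values. Reproducible peaks of both lists that lay at most 20 nt apart were merged into sites, which gave 4 sites in COL6A2, 3 in COL6A3 and none in COL6A1. The reference used here gives gene bounds on GRCh38.p14 without exons, so whether a site is exonic, intronic or in an untranslated region was not analysed here. COL6A1 spans chr21:45981770-46005048 on the plus strand (23.3 kb). COL6A2 spans chr21:46098112-46132848 on the plus strand (34.7 kb). COL6A3 spans chr2:237324018-237414164 on the minus strand (90.1 kb). No cluster lay on the opposite strand in any of the 3 genes.

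Sequence was at hand for 3 of the places that the results turn on, from RefSeq promoter windows of GRCh38.p14. The first is the most 5′ reproducible site of COL6A2, which was in the TGFβ1 list only. At this site both TGFβ1 libraries lay above both control libraries. It is shown 5′ to 3′ on the plus strand as chr21:46112050-46112151, with the 42 nt of the peak in capitals and 30 nt on either side in lower case. The other sequences are the bases at the 5′ ends of COL6A2 and COL6A3, the region in which COL1A1, COL1A2 and COL3A1 carry their highest clusters. For COL6A2 the stretch chr21:46098126-46098155 on the plus strand is shown, 30 nt in capitals that lie in the 5′ cluster of every library. For COL6A3 the stretch chr2:237414135-237414181 on the minus strand is shown, with the first 30 bases of the annotated gene in capitals and the 17 bases before it in lower case.
COL6A2 site 1: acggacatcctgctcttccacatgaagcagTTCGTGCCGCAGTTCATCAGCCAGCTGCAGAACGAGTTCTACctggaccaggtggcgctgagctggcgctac
COL6A2 5′ end: CGGCGCCCGCGCCTCGGGCCGTCGGGAGCG
COL6A3 5′ end: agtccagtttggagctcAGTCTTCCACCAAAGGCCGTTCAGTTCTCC
GC content was 54.8% in the capitals of COL6A2 site 1, 90% at the 5′ end of COL6A2 and 53.3% in the capitals at the 5′ end of COL6A3. These are descriptions of 3 windows, and no motif was searched.

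The 3 mRNAs differed in how much LARP6 enrichment they carried. COL6A1 held no reproducible peak in either list. COL6A2 held 4 peaks in the control list, at 2 sites, with log2 folds of 3.19 to 4.20, and 7 peaks in the TGFβ1 list, at 4 sites, with log2 folds of 3.05 to 4.08. COL6A3 held 4 peaks in each list. In the control list they fell at 3 sites with log2 folds of 3.45 to 6.14, and in the TGFβ1 list at 1 site with log2 folds of 3.66 to 5.39. By log2 fold, the highest COL6A3 peak ranked 75 of 627 peaks in the control list and 249 of 1008 in the TGFβ1 list. The highest COL6A2 peak ranked 311 and 636 in the same lists. As background, 3.87% of the 5355 protein-coding genes tested in both control libraries and 7.08% of the 5224 tested in both TGFβ1 libraries had a reproducible peak. Those shares cover genes with few tested clusters too and are not matched to the members.

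In the tested clusters of single libraries, COL6A1 again stood apart from the other members. COL6A1, which encodes the α1 chain, had 58 and 59 tested clusters in control and 50 and 63 in TGFβ1. None of these 230 clusters was enriched, and the upper limits of the 95% Wilson interval for the share were 6.21% and 6.11% in control and 7.13% and 5.75% in TGFβ1. Among the members, COL6A1 had the densest tested clusters, with 2.49 and 2.53 per kb of gene in control and 2.15 and 2.71 in TGFβ1. It is also the shortest of the member genes. COL1A1, COL1A2 and COL3A1 had more clusters per kb in every library. Their clusters were shorter, with median widths of 10 to 20 nt against 36.5 to 40 nt in COL6A1. Clusters covered 9.55% to 12% of COL6A1, which was more than of COL1A2 and COL3A1 in every library. For COL1A1 the covered share was above that of COL6A1 except in control replicate 1.

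COL6A2, which encodes the α2 chain, had 3 of 59 and 6 of 56 clusters enriched in control (5.08% and 10.7%). In TGFβ1 it had 3 of 52 and 10 of 64 (5.77% and 15.6%). COL6A3, which encodes the α3 chain, had 4 of 98 and 7 of 85 clusters enriched in control (4.08% and 8.24%). In TGFβ1 it had 4 of 101 and 5 of 109 (3.96% and 4.59%). Over all tested clusters of the libraries, the share enriched was 1.21% and 2.09% in control and 2.69% and 3.64% in TGFβ1. The shares of COL6A2 and COL6A3 were thus above that of the library in each of the 4 libraries, and that of COL6A1 was below it. The Wilson intervals for COL6A2 reached from 1.74% to 13.9% and from 5% to 21.5% in control, and from 1.98% to 15.6% and from 8.71% to 26.4% in TGFβ1. Those for COL6A3 reached from 1.6% to 10% and from 4.05% to 16% in control, and from 1.55% to 9.74% and from 1.98% to 10.3% in TGFβ1. The share of all clusters lay inside the interval for COL6A1 in all 4 libraries, for COL6A2 in TGFβ1 replicate 1 and for COL6A3 in both TGFβ1 libraries. These intervals cover counting error only, and neighbouring clusters can share reads.

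Genes with many clusters have more chances of an enriched one. Among the 35 protein-coding genes with at least 50 tested clusters in every library, which include all 3 members, 31.4% had an enriched cluster in control replicate 1 and 31.4% in control replicate 2. In TGFβ1 replicates 1 and 2 the shares were 42.9% and 60.0%. In a single library, then, neither an enriched cluster in COL6A2 or COL6A3 nor its absence in COL6A1 was rare among genes of this size.

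**Figure D1:**
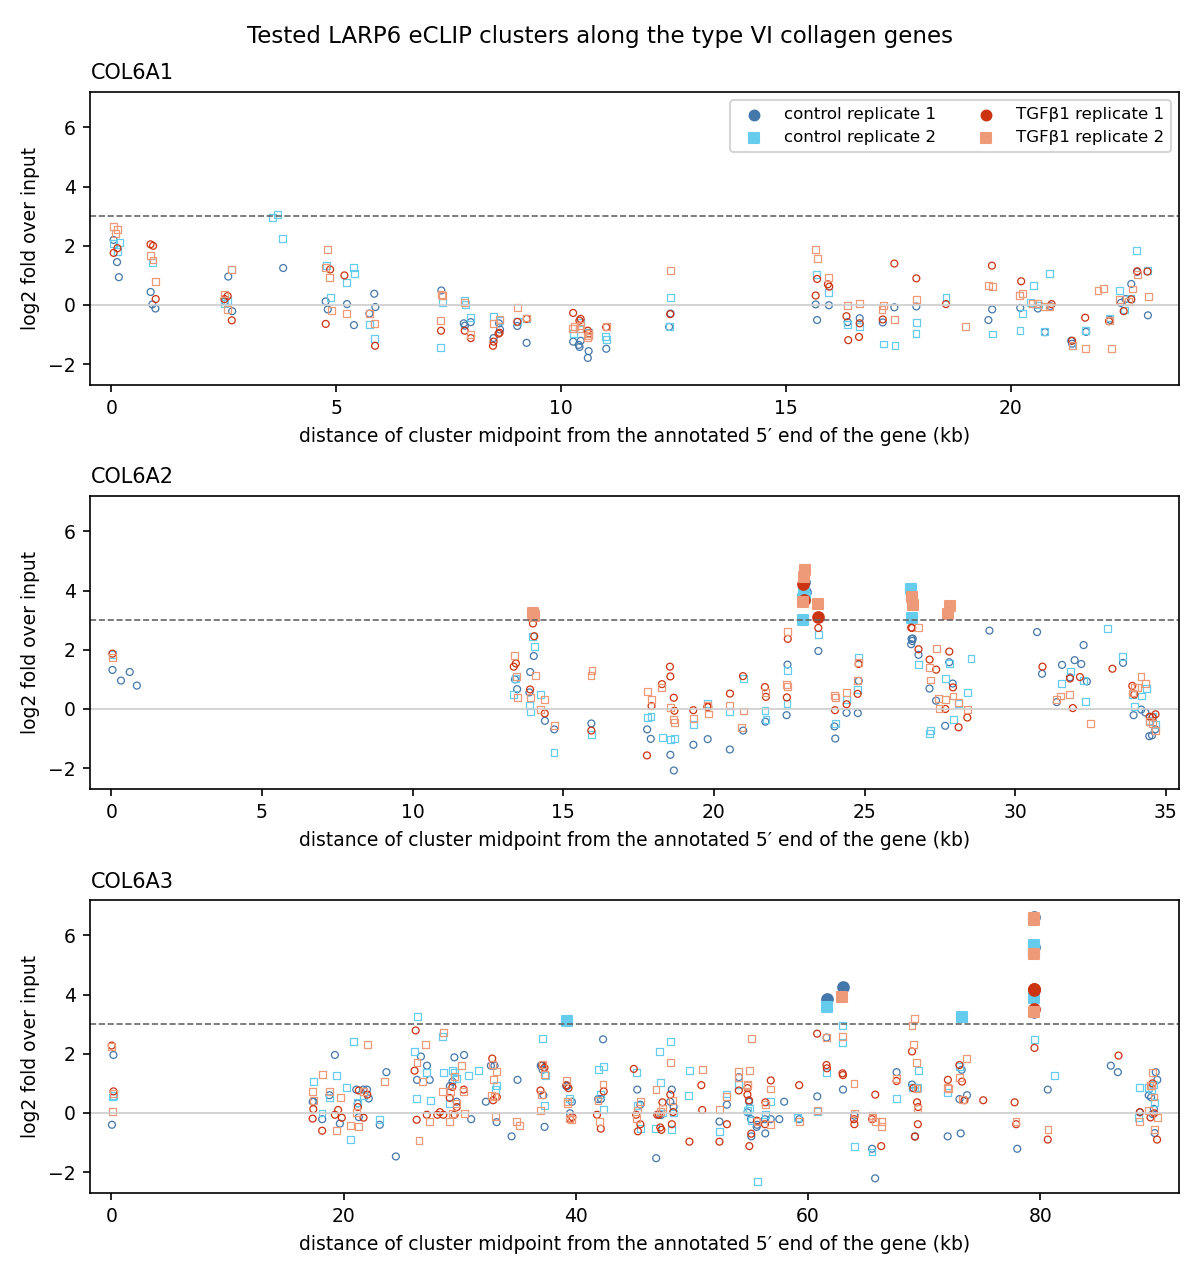
Each point is a tested LARP6 eCLIP cluster of 1 library, placed by how far its midpoint lies downstream of the gene's annotated 5′ end (kb, horizontal axis) and by its log2 fold over input (vertical axis), with colour and shape for the library. Filled points are enriched and the dashed line marks a log2 fold of 3. COL6A1 has no filled point, and the filled points of COL6A2 and COL6A3 lie in a few groups away from the 5′ end.

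The highest cluster of each gene showed the order COL6A3, COL6A2, COL6A1 in 3 of the 4 libraries. In COL6A1 the highest log2 fold was 2.20 and 3.07 in control and 2.05 and 2.64 in TGFβ1. The value of 3.07 passed the fold limit, but its −log10 p was 1.85. In COL6A2 the highest log2 fold was 4.28 and 4.05 in control and 4.23 and 4.71 in TGFβ1. In COL6A3 it was 6.61 and 5.67 in control and 4.18 and 6.60 in TGFβ1, so that TGFβ1 replicate 1 stood apart below the other libraries and lay just under COL6A2.

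Within a library, COL6A2 exceeded COL6A1 by 1.83 ± 0.56 (SD, n = 4), in 4 of 4 libraries. COL6A3 exceeded COL6A1 by 3.27 ± 1.08 (SD, n = 4), also in 4 of 4. Each gave p = 0.125 by an exact sign-flip permutation test, two-sided, which is the smallest p that 4 libraries allow (adjusted p = 0.188 over the 3 pairs of genes). COL6A3 exceeded COL6A2 by 1.45 ± 1.04 (SD, n = 4) in 3 of 4 libraries (p = 0.25, adjusted p = 0.25, same exact test). With 0.125 as its smallest p, the test could separate none of the 3 pairs. This comparison of genes was added after the values were seen.

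The position of each gene among well-covered genes was also taken. Of the 148 genes with at least 20 tested clusters in every library, 94.6% and 93.2% had a lower highest fold than COL6A3 in control, and 81.1% and 91.9% in TGFβ1. For COL6A2 the percentages below it were 89.9% and 79.7% in control and 81.8% and 77.7% in TGFβ1. For COL6A1 they were 37.2% and 62.8% in control and 18.2% and 34.5% in TGFβ1. COL6A1 thus sat below the middle of these genes in 3 of the 4 libraries.

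The median over all clusters of a gene was lowest in COL6A1 in each library, and COL6A2 and COL6A3 were not set apart by it. The median log2 fold of COL6A1 clusters was −0.29 and −0.00 in control and −0.34 and 0.05 in TGFβ1. That of COL6A2 was 0.79 and 0.49 in control and 0.76 and 0.56 in TGFβ1. That of COL6A3 was 0.47 and 0.85 in control and 0.36 and 0.65 in TGFβ1. COL6A3 minus COL6A2 was −0.07 ± 0.36 (SD, n = 4), positive in 2 of 4 libraries (exact sign-flip permutation p = 0.875, adjusted p = 0.875). The COL6A1 median lay below the median of all clusters in 4 of 4 libraries, by −0.90 ± 0.27 on average (SD, n = 4; exact sign-flip permutation p = 0.125, two-sided, adjusted p = 0.375 over the 3 genes). For COL6A2 the difference was −0.10 ± 0.35 and for COL6A3 −0.17 ± 0.30 (SD, n = 4; exact sign-flip permutation p = 0.625 and 0.5, adjusted p = 0.625 for both). In COL6A2 and COL6A3 a few clusters stood high, while the median cluster differed from that of the library by less than the spread over libraries. This measure too was added after the values were seen.

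**Figure D2:**
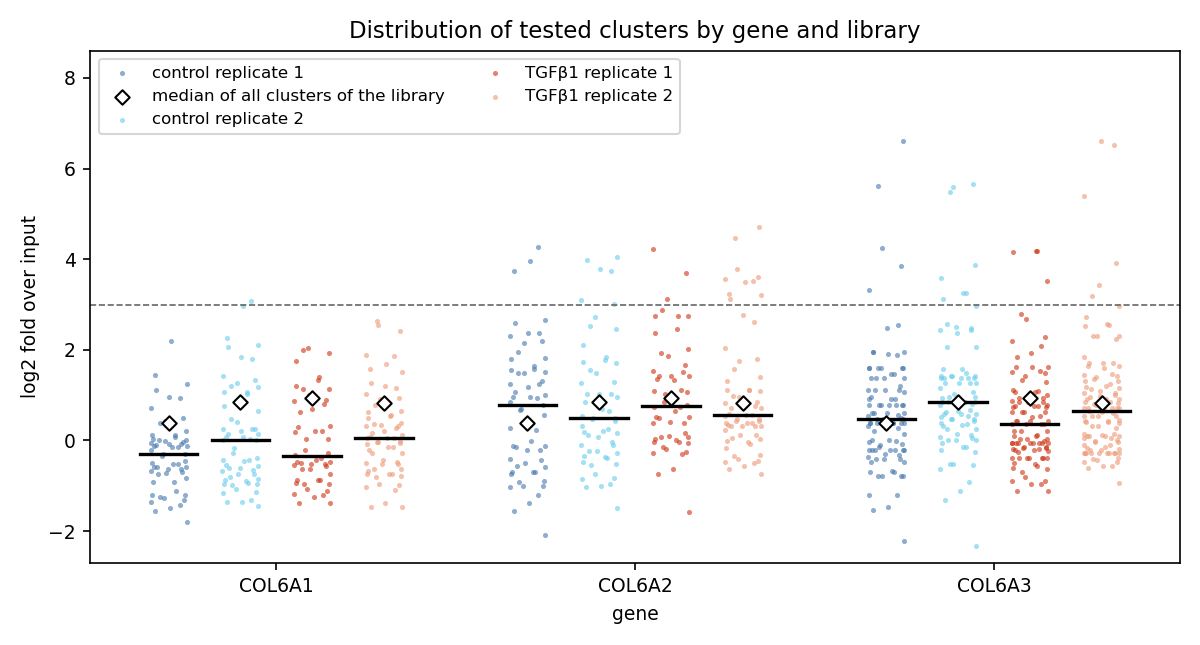
Each small point is a tested cluster, by gene and library (horizontal axis) and log2 fold over input (vertical axis), with horizontal bars for the median of the gene and diamonds for the median of all clusters of that library. The dashed line marks a log2 fold of 3. The COL6A1 bars lie under the diamonds in all 4 libraries.

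The site with the highest fold in 3 of the 4 libraries was COL6A3 site 3, at chr2:237334645-237334754, 110 nt wide. It lies 79464 nt from the annotated 5′ end and 10682 nt from the 3′ end, at 88.1% of the length of the gene. The log2 fold there was 6.61 and 5.67 in control, with −log10 p of 33.2 and 46.7. In TGFβ1 it was 4.18 and 6.60, with −log10 p of 21 and 86.4. The site was enriched in each of the 4 libraries, and the conditions overlapped, at 6.14 ± 0.66 in control and 5.39 ± 1.71 in TGFβ1 (SD, n = 2 each). The difference of −0.75, or −1.02 after library medians, gave p = 0.667 in an exact permutation test over libraries (two-sided, adjusted p = 0.778 over the 7 sites). It turned to 0.46 without TGFβ1 replicate 1. With 2 libraries against 2, such a test cannot give a p below 0.333, so it can call no difference between conditions.

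The other COL6A3 sites lay 5′ of it and were in the control list only. Site 1, at chr2:237352522-237352544 (23 nt, 61631 nt from the 5′ end), had log2 folds of 3.84 and 3.58 in control and 1.62 and 2.55 in TGFβ1. The −log10 p was 3.96 and 5.89 in control and 1.51 and 9.8 in TGFβ1. TGFβ1 replicate 2 thus had the highest −log10 p and missed only the fold limit. Both control libraries were enriched and lay above both TGFβ1 libraries. The site was picked through the control list, so this order is drawn partly from the values that made it a site. The means were 3.71 ± 0.18 and 2.08 ± 0.66 (SD, n = 2 each), a difference of −1.63, or −1.90 after library medians (exact permutation p = 0.333, adjusted p = 0.778). Site 2, at chr2:237351156-237351193 (38 nt, 62990 nt from the 5′ end), had log2 folds of 4.25 and 2.96 in control and 1.34 and 3.91 in TGFβ1. Here the conditions overlapped, with 1 enriched library in each, and the mean difference of −0.98 (−1.25 after library medians) turned to 0.31 without TGFβ1 replicate 1 (exact permutation p = 0.667, adjusted p = 0.778). Absence from the TGFβ1 list is therefore not absence of enrichment at site 2, where TGFβ1 replicate 2 was enriched.

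In COL6A2 the site enriched in every library was site 2, at chr21:46121060-46121123 (64 nt), 22980 nt from the 5′ end and 11756 nt from the 3′ end. It held 3 peaks in each list. Its log2 fold was 4.28 and 3.98 in control and 4.23 and 4.71 in TGFβ1. The conditions overlapped, at 4.13 ± 0.21 and 4.47 ± 0.33 (SD, n = 2 each). The difference was 0.34, or 0.07 after library medians (exact permutation p = 0.667, adjusted p = 0.778). All 4 libraries lay within 0.73 of each other.

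COL6A2 site 3, at chr21:46121556-46121557, is a peak of 2 nt that lies 23444 nt from the 5′ end. Its log2 fold was 1.96 and 2.53 in control and 3.12 and 3.56 in TGFβ1, and it was enriched in both TGFβ1 libraries and in neither control. In TGFβ1 replicate 1 the call rests on a cluster of 2 nt, and the adjoining 38 nt, at chr21:46121558-46121595, had 2.74 and were not enriched. The means were 2.25 ± 0.40 and 3.34 ± 0.31 (SD, n = 2 each), a difference of 1.09, or 0.82 after library medians (exact permutation p = 0.333, adjusted p = 0.778). COL6A2 site 1, whose sequence is printed above, lies 13988 nt from the 5′ end. Its log2 fold was 1.79 and 2.46 in control and 2.89 and 3.23 in TGFβ1, and it was enriched in TGFβ1 replicate 2 alone. Its means were 2.13 ± 0.47 and 3.06 ± 0.24 (SD, n = 2 each), a difference of 0.93, or 0.67 after library medians (exact permutation p = 0.333, adjusted p = 0.778). At both sites the conditions did not overlap, with and without subtraction of the library medians. Both sites were in the TGFβ1 list only, so high TGFβ1 values helped to make them sites. The lack of overlap is thus drawn partly from the values that picked them.

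COL6A2 site 4, at chr21:46124651-46124714 (64 nt, 26570 nt from the 5′ end), varied between replicates of each condition. Its log2 fold was 2.38 and 4.05 in control and 2.75 and 3.78 in TGFβ1, with replicate 2 the higher in both. The difference between conditions was 0.05, or −0.22 after library medians (exact permutation p = 1). It reached −0.79 without control replicate 1 and 0.89 without control replicate 2.

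**Figure D3:**
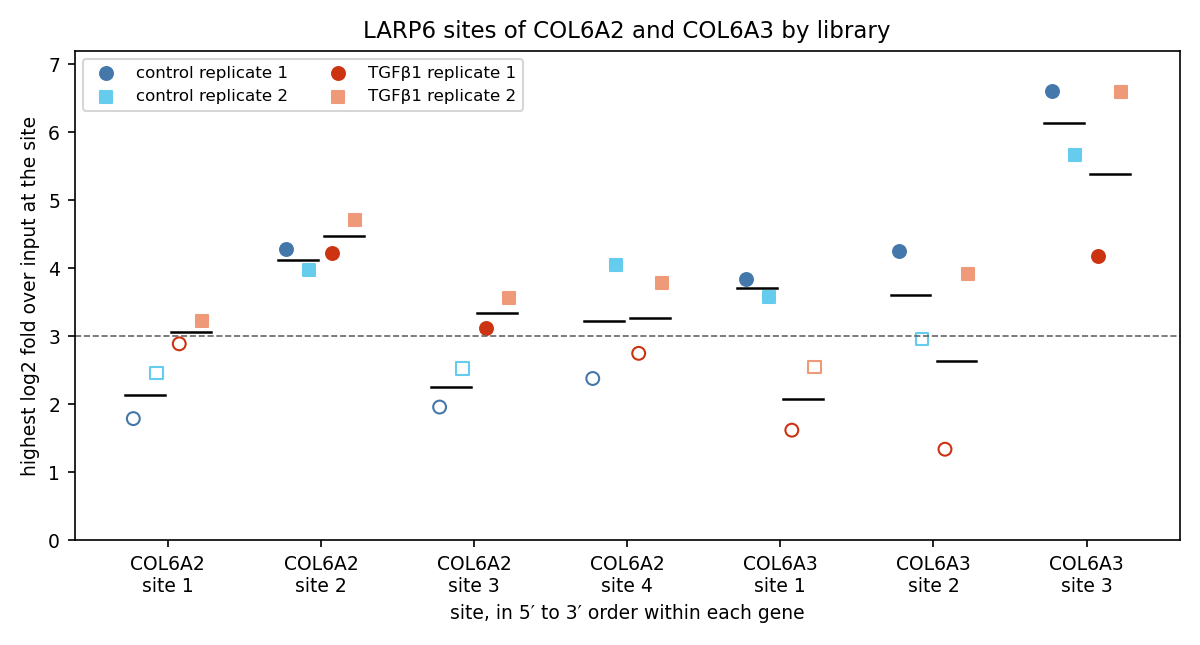
The highest log2 fold over input at each of the 7 reproducible sites (vertical axis), by site in 5′ to 3′ order within each gene (horizontal axis), with 1 point per library, filled where a cluster there was enriched, and bars for the mean of each condition. The dashed line marks a log2 fold of 3. At COL6A2 sites 1 and 3 both TGFβ1 points lie above both control points, and at COL6A3 site 1 they lie below. Each of these sites was in the list of its higher condition only.

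Beside these sites, 5 clusters were enriched in a single library each. In COL6A2 all 3 of them came from TGFβ1 replicate 2, at chr21:46112122-46112175 (log2 fold 3.13, next to site 1), chr21:46125875-46125911 (3.22) and chr21:46125912-46125962 (3.49). In COL6A3 the 2 came from control replicate 2, at chr2:237340816-237340954 (3.26) and chr2:237374893-237375015 (3.12). The enriched member cluster nearest to the limit had a log2 fold of 3.02. By nucleotide, 63 nt of COL6A2 and 92 nt of COL6A3 were enriched in all 4 libraries, of 1582 and 2002 nt that all 4 libraries had tested. In any library, 353 nt of COL6A2 and 440 nt of COL6A3 were enriched, and 0 nt of COL6A1, of which 1632 nt were tested in all 4.

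A wider look took every stretch that passed the −log10 p limit in all 4 libraries, whatever its fold, a measure added after the values were seen. COL6A2 had 6 such stretches, 4 of them at its sites, COL6A3 had 1 (site 3) and COL6A1 had 1. The stretch of COL6A2 at chr21:46120560-46120577 had log2 folds of 1.50 and 1.30 in control and 2.37 and 2.62 in TGFβ1. The one at chr21:46124885-46124915 had 1.83 and 1.49 in control and 2.02 and 2.76 in TGFβ1. In 4 of the 6 stretches of COL6A2 both TGFβ1 libraries lay above both controls, each with p = 0.333 by exact permutation, and in 3 of the 6 they did so after library medians, where the one at chr21:46124885-46124915 overlapped. Among those 4 are the stretches at sites 1 and 3, which hold peaks of the TGFβ1 list only. The 6 stretches share an mRNA, its libraries and their inputs and are not independent of each other. In COL6A1 and COL6A3 the conditions overlapped at the 1 stretch of each gene. The same count is not given for genes other than the members, and the median over all clusters was also higher in TGFβ1, by 0.27. The count can therefore not be called particular to COL6A2.

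For the genes as a whole, the conditions were not separated. The highest log2 fold differed between TGFβ1 and control by −0.29 in COL6A1, 0.30 in COL6A2 and −0.75 in COL6A3, each with p = 0.667 and adjusted p = 0.667 over the 3 genes (exact permutation, two-sided). After library medians these differences were −0.56, 0.03 and −1.02. The sign turned in COL6A1 without TGFβ1 replicate 1 (0.01) or control replicate 2 (0.14) and in COL6A3 without TGFβ1 replicate 1 (0.46). For COL6A1 the means were 2.64 ± 0.61 in control and 2.35 ± 0.42 in TGFβ1, and for COL6A2 they were 4.17 ± 0.16 and 4.47 ± 0.33 (SD, n = 2 each). The share of enriched clusters was 7.9% ± 3.98 in control and 10.7% ± 6.97 in TGFβ1 for COL6A2, and 6.16% ± 2.94 and 4.27% ± 0.443 for COL6A3 (SD, n = 2 each). Both differences, 2.8 and −1.88 percentage points, gave p = 0.667 (adjusted p = 1, exact permutation). In COL6A2 replicate 2 had the larger share in both conditions. The COL6A2 share difference turned to −2.13 percentage points without TGFβ1 replicate 2 and to −0.0172 without control replicate 1, and that of COL6A3 to 0.192 without control replicate 2.

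None of the type VI collagen genes had an enriched cluster in its first 500 nt in any library, counted along the gene. The reproducible peak of COL6A2 nearest to the annotated 5′ end of the gene was the one 13988 nt away. Such distances include introns. Exons were not at hand, so distances along the mRNA are unknown and may be far shorter. Among all clusters in the first 500 nt of protein-coding genes, 1.89% and 1.92% were enriched in control and 2.18% and 3.09% in TGFβ1, so an absence there is the common case. The highest log2 fold in that window was 2.20 and 2.10 in control and 1.92 and 2.64 in TGFβ1 for COL6A1. It was 1.32 and 1.85 in control and 1.87 and 1.75 in TGFβ1 for COL6A2, and 1.96 and 0.58 in control and 2.28 and 2.25 in TGFβ1 for COL6A3. COL1A1, COL1A2, COL3A1 and COL5A1 stood far higher in this window in every library. COL1A1, the α1 chain of type I collagen, had 7.91 and 7.70 in control and 7.59 and 7.79 in TGFβ1. COL1A2, its α2 chain, lay between 7.27 and 8.13, COL3A1 between 9.06 and 9.48 and COL5A1 between 6.51 and 7.25 over the 4 libraries. The COL5A1 values came from a cluster 492 nt from the 5′ end. In its first 200 nt COL5A1 had 2.72 and 1.95 in control and 2.62 and 2.61 in TGFβ1 with no enriched cluster, near the values of COL6A1, whereas the other 3 genes held their high values there too.

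**Figure D4:**
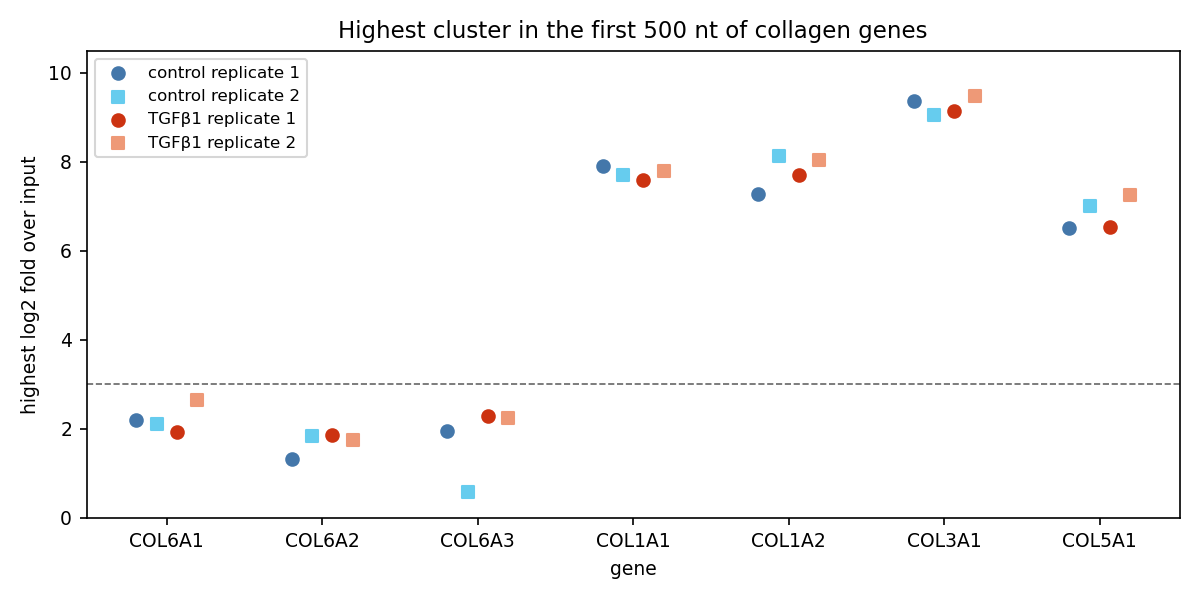
The highest log2 fold over input among clusters in the first 500 nt of each gene (vertical axis), by gene (horizontal axis), with 1 point per library, and a dashed line at a log2 fold of 3. All points of the type VI collagen genes lie below the line, and all points of COL1A1, COL1A2, COL3A1 and COL5A1 lie above 6.

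Below the enrichment limit, the 5′ end of COL6A1 still carried a cluster in every library. Over its first 50 nt the log2 fold was 2.20 and 2.07 in control and 1.76 and 2.64 in TGFβ1, with −log10 p of 6.78 and 10.4 and of 7.81 and 22.8. The stretch chr21:45981780-45981926 (147 nt) was the only one of COL6A1 that passed the p limit in all 4 libraries. At the 5′ end of COL6A2 the log2 fold was 1.32 and 1.85 in control and 1.87 and 1.75 in TGFβ1, and its −log10 p passed the limit in the TGFβ1 libraries (3.6 and 4.28) and not in control (1.03 and 2.49). The log2 folds of the conditions overlapped there, with a mean difference of 0.23. After library medians the difference was −0.04, with both TGFβ1 libraries just below both controls.

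The 5′ end of COL6A3 had log2 folds of −0.40 and 0.54 in control and 2.28 and 2.25 in TGFβ1, with no overlap between conditions. The means were 0.07 ± 0.67 and 2.26 ± 0.02 (SD, n = 2 each), a difference of 2.19, or 1.93 after library medians (exact permutation p = 0.333, adjusted p = 1). Its −log10 p stayed under the limit of 3 in all 4 libraries, at 0 and 0.277 in control and 2.36 and 2.83 in TGFβ1. This place was singled out after its values were seen. Upstream of the annotated start, within 250 nt, clusters of the same strand were tested in TGFβ1 alone. They lay at chr2:237414182-237414258 in replicate 1 (log2 fold 1.43) and chr2:237414215-237414248 in replicate 2 (1.05). Their −log10 p was only 0.501 and 0.33, and whether a cluster is tested can depend on depth, which is unknown. At the opposite end of the genes, the last 500 nt held no enriched cluster in any library, and the highest log2 folds there lay between −0.18 and 1.85.

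Over all their clusters combined, the type VI collagen genes carried a smaller share of enriched clusters than the type I and type III genes. In control, 7 of 215 and 13 of 200 type VI clusters were enriched (3.26% and 6.5%), against 57 of 359 and 123 of 447 clusters of COL1A1, COL1A2 and COL3A1 (15.9% and 27.5%). In TGFβ1 the counts were 7 of 203 and 15 of 236 (3.45% and 6.36%) against 95 of 456 and 130 of 541 (20.8% and 24%). The difference averaged −17.2 ± 3.45 percentage points (SD, n = 4) and was negative in 4 of 4 libraries (exact sign-flip permutation p = 0.125, two-sided, the smallest that 4 libraries allow). The size of this gap depends on the fold limit, with −49.3 percentage points at a limit of 2 and −7.75 at a limit of 4. COL5A1, a type V chain gene that was not in this comparison, had 5.04% and 5.3% of its clusters enriched in control and 4.07% and 6.67% in TGFβ1, close to the type VI shares.

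**Figure D5:**
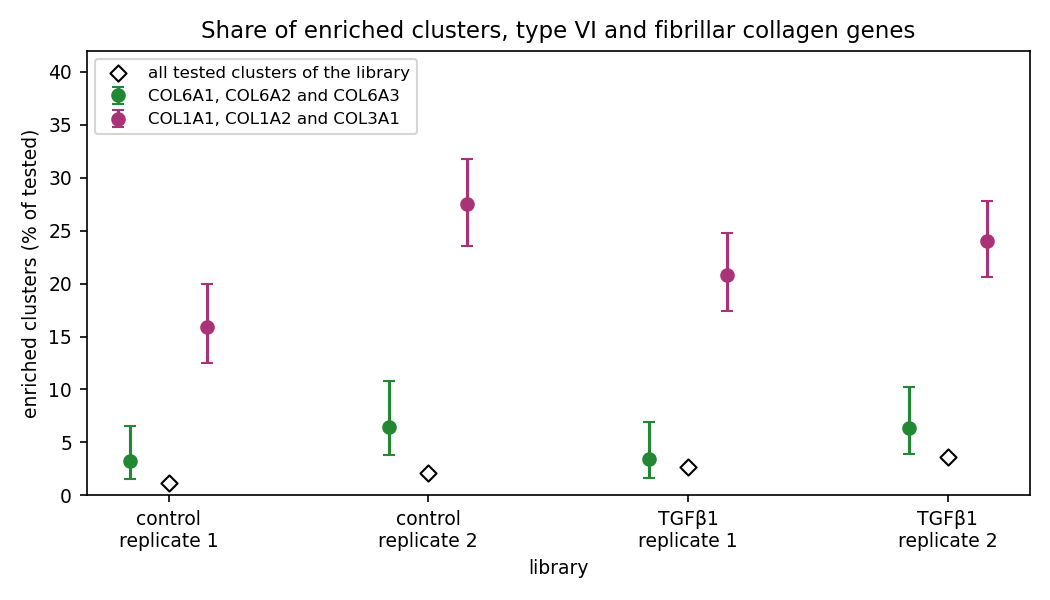
The share of tested clusters that were enriched (%, vertical axis) in each library (horizontal axis), for the 3 type VI collagen genes combined, for COL1A1, COL1A2 and COL3A1 combined, and for all tested clusters. Bars are 95% Wilson intervals, which cover counting error only. In each library the type VI interval lies below that of COL1A1, COL1A2 and COL3A1.

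By highest log2 fold over the 4 libraries, the genes most like each member were found among the 147 other genes with at least 20 clusters in every library. The distance was Euclidean. For COL6A1 they were TPM4 at 0.50, EXT1 at 0.51 and FN1 at 0.59, and none of these had a reproducible peak. For COL6A2 they were ARHGEF10 at 1.05, THBS1 at 1.15 and CCDC80 at 1.21. For COL6A3 they were DPYSL2 at 1.41, AFAP1 at 2.15 and CAVIN1 at 2.74, so the profile of COL6A3 had fewer close neighbours.

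Genes that work with type VI collagen were read from a list of 29, of which 23 had a tested cluster in some library and 19 in all 4. The other type VI chain genes on it, COL6A5 and COL6A6, had no tested cluster. A reproducible peak was present in 5 of the 19 tested in both control libraries and in 7 of the 21 tested in both TGFβ1 libraries, against 3.87% and 7.08% of all tested genes. These shares are not matched for tested clusters, of which HSPG2 had 103 to 156 and TNXB 44 to 96 in a library. HSPG2, TNXB and ITGB1 alone were enriched in both libraries of a condition, and each was so in both conditions. No share over all genes stands beside that count. In a single library, 31.4% to 60.0% of the 35 genes with at least 50 clusters in every library had an enriched cluster.

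Among the 10 matrix partners, HSPG2, which encodes the basement membrane proteoglycan perlecan, had a highest log2 fold of 3.84 and 4.19 in control and 3.68 and 6.63 in TGFβ1, with 2 peaks in the control list and 5 in the TGFβ1 list. TNXB, which encodes the matrix glycoprotein tenascin-X, had 3.44 and 4.03 in control and 3.53 and 3.87 in TGFβ1. DCN and BGN, which encode the small proteoglycans decorin and biglycan that bind type VI collagen, had no enriched cluster. Among the 8 receptors, ITGB1, the β1 chain of the collagen-binding integrins, had 3.21 and 4.92 in control and 3.25 and 4.32 in TGFβ1, with 3 and 6 peaks. ANTXR1 and ANTXR2, which encode cell-surface receptors of the anthrax toxin receptor family, had no enriched cluster. Among the 9 genes of processing and assembly, MMP14, a membrane-bound metalloprotease, and PLOD3, a lysyl hydroxylase, had 1 peak in each list. BMP1, a procollagen protease, and P4HA2, a prolyl hydroxylase chain, had 1 in the TGFβ1 list only, and SERPINH1, the collagen chaperone HSP47, had no enriched cluster.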

How the data were processed

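LARP6 eCLIP of human hepatic stellate cells gave 4 immunoprecipitated libraries with a list of tested clusters each, and 1 list per condition made by the authors from both replicates. Reads were handled with cutadapt, STAR and UMI-tools on GRCh38, per the submitters' processing notes, without versions. For the peak caller, input normalisation and replicate rule, details are not given in the sources used here. Column meanings were inferred from value ranges, since headers are absent. One deposited column holds the log2 fold over input, and another holds the −log10 p-value, capped by the authors at 400. There are no counts, so depth and its precision are unknown.

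Genes came from RefSeq tables of GRCh38.p14. The strand of COL6A2 and COL6A3 was taken from the promoter table and that of COL6A1 from its clusters, all of which lay on 1 strand. Regions were assigned at the midpoint. A site's value is the highest log2 fold of a cluster that shares 1 nt or more with it on its strand. Conditions were compared by exact permutation over 2 against 2 libraries and genes by exact sign-flip permutation within libraries, with Benjamini-Hochberg adjustment over the member genes, pairs of genes or sites. Alternatives were other fold, p, overlap, merging and window limits, a reproducible list of own rule, weighting by length, centring on library medians, a replicate block, and each library omitted in turn. Across 156 genes, replicate differences of the median log2 fold in control and TGFβ1 correlated at r = 0.05. The libraries were therefore not paired in the main tests, though whether equal replicate numbers mark a shared batch is unknown.

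The members, gene lists and tests were chosen with earlier results of these data known. Named genes are the members, 4 fibrillar collagen genes, the genes of the pathway list with an enriched cluster in both libraries of a condition or a reproducible peak, and the 3 genes most like each member. COL6A5, COL6A6, DCN, BGN, ANTXR1, ANTXR2 and SERPINH1 were named beside them after their values were seen, to show where no enrichment was found, and CD68 and SOX9 as the markers of other cells with a tested cluster. The code was tested on simulated data. Versions were Python 3.11.15, SciPy 1.17.1, NumPy 2.4.6, matplotlib 3.10.9 and pandas 2.3.3.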

Additional observations from a re-analysis of the deposited data

How the results depend on the processing

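Of 174 alternatives for 26 results, 149 kept the direction and the side of any threshold. Another 13 turned the direction, and 12 were set down as a moved count or share. Shares among the 149 could still change in size. The type VI share in TGFβ1 replicate 1, for example, was 3.45% as reported and 1.69% weighted by length. Differences that kept their direction could still change in size, such as that of the highest fold of COL6A2, 0.03 after library medians. No alternative called a difference between conditions, which 2 libraries against 2 cannot do. Replicate differences were nearly uncorrelated between the conditions (r = 0.05), which does not settle whether equal replicate numbers mark a shared batch. With the replicate block the differences were as without it, for example 0.30 for the highest fold of COL6A2 (exact sign-flip permutation over 2 pairs, smallest possible p = 0.5), and no call changed. Without each library in turn, the difference of the highest fold ranged from −0.72 to 0.14 in COL6A1, from 0.07 to 0.54 in COL6A2 and from −1.96 to 0.46 in COL6A3. The difference of the share of enriched clusters ranged from −2.13 to 7.73 percentage points in COL6A2 and from −3.96 to 0.192 in COL6A3. The site differences that turned ranged from −0.79 to 0.89 at COL6A2 site 4 (also −0.46), from −2.27 to 0.31 at COL6A3 site 2 and from −1.96 to 0.46 at COL6A3 site 3. For COL6A1 the difference was 0.22 with the length-weighted mean and 0.17 with clusters at a −log10 p of at least 3, and COL6A2 site 4 gave −0.22 after library medians. The share of type VI minus that of COL1A1, COL1A2 and COL3A1 ranged from −18.7 to −15.9 percentage points without each library in turn, and was −49.3 and −7.75 at fold limits of 2 and 4 and −19.5 weighted by length.

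The 8 control peaks became 3 and the 11 TGFβ1 peaks 5 at a log2 fold of at least 4 with a −log10 p of at least 5, by construction of the stricter limits. A list of own rule held 7 TGFβ1 peaks. From single replicates the counts were 7 to 13 in control (13 without replicate 1) and 7 to 15 in TGFβ1 (7 without replicate 2). At a fold limit of 2, 7.88% of type VI clusters were enriched in TGFβ1 replicate 1, the COL6A1 share difference was 0.824 percentage points, and 1 and 2 clusters in control and 3 in TGFβ1 replicate 2 were enriched in the first 500 nt. At a limit of 4, the shares were 2% in control replicate 2 and 2.12% in TGFβ1 replicate 2. The overlap of at least 50% of a cluster gave no value at COL6A2 sites 1 and 3 and COL6A3 site 1, nor did the −log10 p limit at COL6A3 sites 1 and 2. Unknown depth limits every value under the enrichment limits.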
